A study of Mus musculus with 11 samples.

Results

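The genes described are the cytosolic sulfotransferases of the mouse Sult2a and Sult3a families. They were taken by name, as rows of the deposited expression matrix whose Ensembl gene identifier maps to Sult2a1 to Sult2a8, Sult3a1 or Sult3a2, which gave 10 genes of the 36788 rows in the matrix. The family was selected on these same data because some of its members stood out between the treatment groups, so all differences between FSH and saline for the 10 genes are given as a description. No p is given for them, and nothing is read from how many passed a threshold. Liver RNA was sequenced from 11 wild-type C57BL/6 female mice older than 12 weeks, all ovariectomized (OVX) and all fed a high-fat diet. The strain is as labelled, while the study's methods give its mice a mixed background that includes C57BL/6J. Of these, 5 received follicle-stimulating hormone (FSH mice 1, 2, 3, 4 and 6) and 6 received saline (saline mice 1 to 6). Each library is a whole liver from 1 animal, and the groups addressed what FSH does to the liver when the ovaries are absent. Values are reads per 1000000 counted reads (CPM), and a library held between 10801891 and 19909327 counted reads.

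Cytosolic sulfotransferases move a sulfo group from the donor 3′-phosphoadenosine 5′-phosphosulfate (PAPS) onto hydroxyl or amine groups, which makes the acceptor more soluble in water and easier to export. The SULT2A enzymes act on hydroxysteroids and bile acids, and in mouse liver several of them are far more abundant in females than in males. SULT3A1 is an amine N-sulfotransferase, also known for its abundance in female liver.

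All 8 Sult2a genes lay in 1 cluster of 870.3 kb on chromosome 7 (GRCm38, 13623967 to 14494230), in the order Sult2a5, Sult2a2, Sult2a1, Sult2a4, Sult2a3, Sult2a6, Sult2a8 and Sult2a7. The pair Sult3a2 and Sult3a1 lay on chromosome 10, at 33766424 to 33786704 and 33857721 to 33879532. The Sult2a genes are close copies of each other. Over the coding sequence Sult2a1 was 94.9% identical to Sult2a5, 94.0% to Sult2a4, 93.7% to Sult2a3 and 89.7% to Sult2a6, but only 81.6% to Sult2a7 and 69.4% to Sult2a8. Sult3a1 and Sult3a2 were 90.9% identical to each other. The first 90 coding bases (GENCODE M21 transcripts) show how near the copies are, with capitals at bases that differ from Sult2a1 at the same position:
Sult2a1: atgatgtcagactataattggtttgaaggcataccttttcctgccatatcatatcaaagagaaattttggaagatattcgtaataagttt
Sult2a2: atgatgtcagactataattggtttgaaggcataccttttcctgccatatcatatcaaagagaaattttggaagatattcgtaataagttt
Sult2a3: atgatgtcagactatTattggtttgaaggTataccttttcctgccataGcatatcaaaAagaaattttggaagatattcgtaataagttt
Sult2a4: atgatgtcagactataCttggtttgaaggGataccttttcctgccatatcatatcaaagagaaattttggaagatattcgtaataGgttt
Sult2a5: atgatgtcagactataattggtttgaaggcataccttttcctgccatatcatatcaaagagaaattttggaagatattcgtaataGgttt
Sult2a6: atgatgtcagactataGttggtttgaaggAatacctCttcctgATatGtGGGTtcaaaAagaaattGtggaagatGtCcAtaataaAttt
Over these bases Sult2a2 had no difference from Sult2a1, Sult2a5 had 1, Sult2a4 had 3, Sult2a3 had 4 and Sult2a6 had 16.

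This likeness limits how well reads can be assigned. A 100-base window of the Sult2a1 transcript also occurred, letter for letter, in another gene's transcript at 11.4% of its positions, and this share was 34.6% for Sult2a2, 16.6% for Sult2a5 and 5.76% for Sult2a4. It was 0 for Sult2a3, Sult2a6, Sult2a7, Sult2a8, Sult3a1 and Sult3a2. With 200-base windows, nearer to a read pair, the shares fell to 0.609% for Sult2a1, 4.06% for Sult2a2 and 2.01% for Sult2a5, and to 0 for Sult2a4. Levels of Sult2a1, Sult2a2, Sult2a4 and Sult2a5 are therefore uncertain to the extent that reads were split between them, while Sult2a6 and Sult2a3 shared no such window. The annotated Sult2a2 transcript is short, with 741 bases and 4 coding exons where Sult2a1 has 1020 bases and 6, so its level per length is uncertain. Sult2a8 has 8 annotated transcripts that cover 3284 exonic bases together. Its levels per length use 1 transcript of 2143 bases and depend on that choice.

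**Figure D1:**
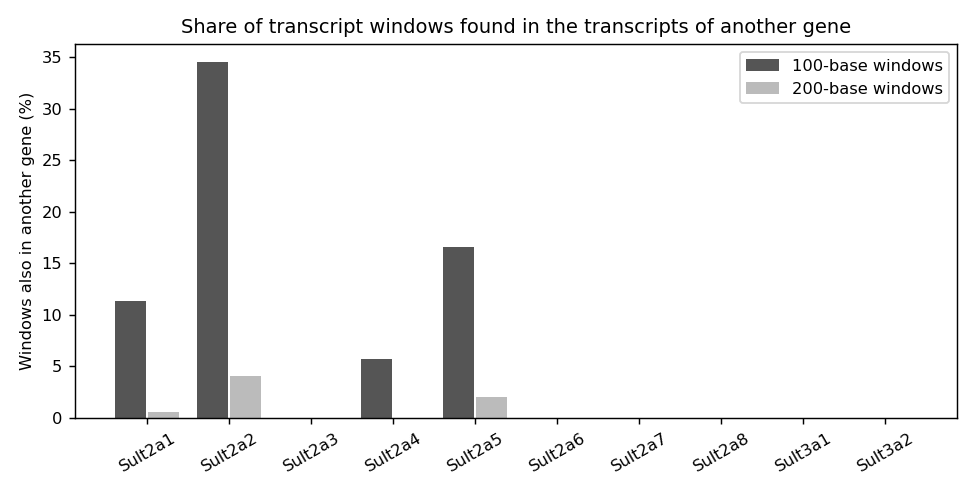
Share of all 100-base (dark) and 200-base (light) windows of each gene's longest coding transcript that occurred identically in the transcript of another gene, in percent, for the 10 genes. Sult2a2 has the tallest bars at 34.6% and 4.06%, and 6 of the 10 genes have none.

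The region just upstream of the start is shown for the 4 close Sult2a copies with an entry in the RefSeq promoter table (GRCm38.p6), because these 4 genes behaved differently between the livers. The table matched 7 of the 10 genes, and Sult2a1, Sult2a2 and Sult2a7 are not among them. Capitals mark the letters GTCATGAAC, an imperfect inverted repeat, and GTTAAT, a half-site of the hepatocyte factor HNF1. The sequences read 5′ to 3′ along each gene's own strand:
Sult2a6 (chr7:14254921-14255085, minus strand): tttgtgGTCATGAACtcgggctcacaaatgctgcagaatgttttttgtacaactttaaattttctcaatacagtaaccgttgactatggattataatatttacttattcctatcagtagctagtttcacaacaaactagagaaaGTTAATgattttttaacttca
Sult2a4 (chr7:13989675-13989838, minus strand): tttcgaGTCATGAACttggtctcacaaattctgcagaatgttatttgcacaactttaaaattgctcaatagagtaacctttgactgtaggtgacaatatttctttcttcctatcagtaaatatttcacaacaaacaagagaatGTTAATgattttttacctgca
Sult2a5 (chr7:13623796-13623959, plus strand): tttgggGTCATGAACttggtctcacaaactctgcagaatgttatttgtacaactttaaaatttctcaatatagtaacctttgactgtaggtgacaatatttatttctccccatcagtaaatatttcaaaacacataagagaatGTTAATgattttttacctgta
Sult2a3 (chr7:14123079-14123242, minus strand): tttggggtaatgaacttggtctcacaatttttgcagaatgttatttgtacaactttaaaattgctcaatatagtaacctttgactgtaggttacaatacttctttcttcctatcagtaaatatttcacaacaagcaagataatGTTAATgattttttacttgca
GTCATGAAC occurred in the windows of Sult2a4, Sult2a5 and Sult2a6, at 244, 165 and 209 bases before the RefSeq start, and its distance to GTTAAT was 137 or 138 bases in each. The Sult2a3 block was aligned at the same place but differed from GTCATGAAC at 1 base, the third of the 9 letters. Searched on both strands, GTCATGAAC was present in 54 of the 32851 promoter windows of 300 bases in the table, or 0.164%, and GTTAAT in 7.10%. The nuclear receptor half-site AGGTCA, also searched on both strands, was in 16.3% of the windows and, among the members, in that of Sult2a8 alone. Over the aligned windows Sult2a3 and Sult2a4 were 92.6% identical, Sult2a4 and Sult2a5 92.2% and Sult2a3 and Sult2a5 87.4%. Sult2a6 was 80.9% to 85.0% identical to these 3, against 57.5% to 60.9% between Sult2a8 and these genes. The motifs were looked for after the sequences had been seen, and a match describes letters only.

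Among the 10 genes, Sult2a4 and Sult2a6 had the largest differences between the groups, and both were near absent from 5 of the 6 saline livers. Sult2a6 was at 40.0 CPM in FSH mouse 1, 31.6 in FSH mouse 3, 37.8 in FSH mouse 4 and 31.8 in FSH mouse 6, but at 1.25 CPM in FSH mouse 2. In the saline group it was at 17.5 CPM in saline mouse 1 and at 0, 0.0874, 0, 0 and 0.0622 CPM in saline mice 2 to 6, which is 1 read at most. Saline mouse 1 was thus at least 63.1-fold above the other saline livers, taking 3 reads per library as the floor. All 5 FSH livers lay above these 5 saline livers, and saline mouse 1 lay between FSH mouse 2 and the other FSH livers, so the groups overlapped.

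Sult2a4 repeated this pattern at a lower level. It was at 5.73, 0.369, 3.17, 6.07 and 5.08 CPM in FSH mice 1, 2, 3, 4 and 6. It was at 2.16 CPM in saline mouse 1 and at 0, 0, 0, 0.0926 and 0.124 CPM in saline mice 2 to 6, or 2 reads at most. The ratio of Sult2a4 to Sult2a6 stayed between 0.10 and 0.16 in FSH mice 1, 3, 4 and 6 and saline mouse 1, and was 0.294 in FSH mouse 2 from 5 and 17 reads.

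Sult2a5 was present in every liver. Its levels were 56.7, 1.70, 59.2, 79.1 and 65.0 CPM in FSH mice 1, 2, 3, 4 and 6. In the saline livers it ran from 3.27 to 28.8 CPM with a median of 12.1, and the highest of these was again saline mouse 1. The 4 FSH livers other than FSH mouse 2 exceeded every saline liver for Sult2a4, Sult2a5 and Sult2a6 alike, while FSH mouse 2 was below every saline liver for Sult2a5. Set against Sult2a1 of the same liver, however, Sult2a5 was higher in FSH mouse 2 than anywhere else, with a ratio of 0.489. The ratio was between 0.153 and 0.271 in the other FSH livers, 0.146 in saline mouse 1 and between 0.0365 and 0.0541 in saline mice 2 to 6. The groups did not overlap in this ratio, a comparison picked after the values were seen. The same separation from Sult2a1 held for 2 of the 12733 genes tested (0.0157%), of which Sult2a5 is 1. Sult2a1 itself ranged from 3.47 to 518 CPM among the FSH livers, which makes overlap likely for any gene. The share therefore does not measure how unusual Sult2a5 is.

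Sult2a1, Sult2a2 and Sult2a3 varied from liver to liver within both groups. Sult2a1, the main hydroxysteroid and bile acid sulfotransferase of female mouse liver, was at 209, 3.47, 264, 518 and 409 CPM in FSH mice 1, 2, 3, 4 and 6, and ran from 77.1 to 521 CPM with a median of 196 in the saline livers. Sult2a2 was at 128, 7.08, 332, 420 and 353 CPM with FSH and ran from 133 to 564 CPM with a median of 246 with saline. Sult2a3 was at 7.68, 0.0738, 18.7, 39.3 and 36.4 CPM with FSH and ran from 1.96 to 32.1 CPM with a median of 14.4 with saline. The FSH and saline ranges overlapped for all 3 genes. In each of them FSH mouse 2 was the lowest of all 11 livers, at 60.3-fold below the next FSH liver for Sult2a1, 18.1-fold for Sult2a2 and, from a single read in FSH mouse 2, far below for Sult2a3. Saline mouse 1 was within the range of the other saline livers for these 3 genes.

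**Figure D2:**
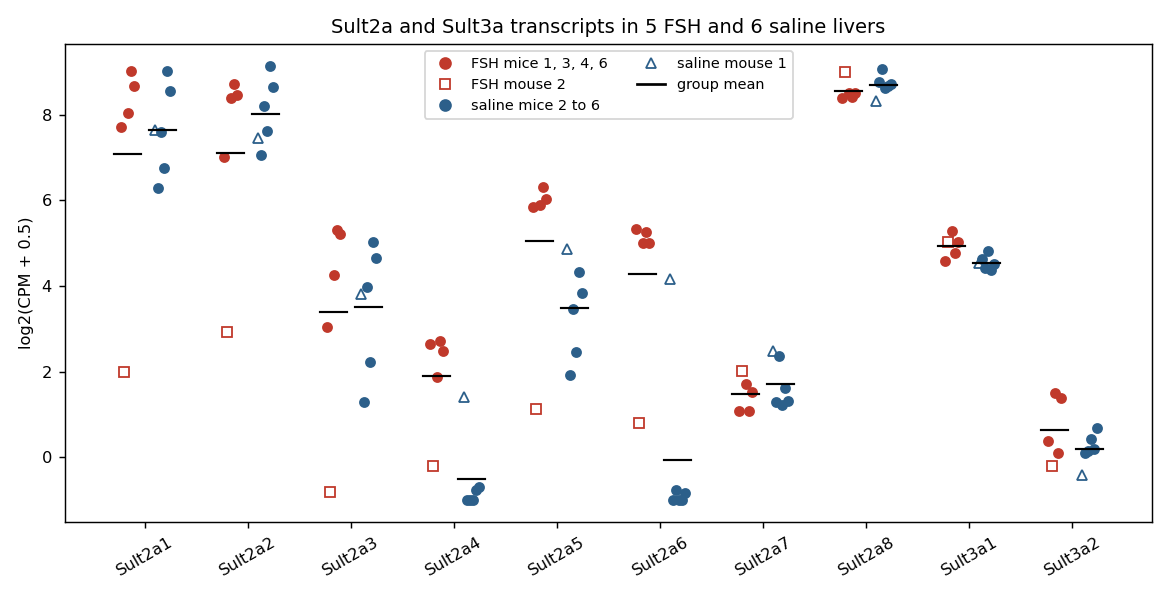
Level of the 10 genes in each liver as log2(CPM + 0.5), with FSH livers in red, saline livers in blue and the group mean as a black line. FSH mouse 2 (open square) is far below the other FSH livers for Sult2a1 to Sult2a6, and saline mouse 1 (open triangle) is the 1 saline liver above the floor for Sult2a4 and Sult2a6.

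In Sult2a7, Sult2a8 and Sult3a1 FSH mouse 2 was not the lowest FSH liver. Sult2a8, which sulfates bile acids at the 7α-hydroxyl group, was at 334, 508, 364, 342 and 360 CPM in FSH mice 1, 2, 3, 4 and 6 and ran from 316 to 536 CPM with a median of 412 in the saline livers. Here FSH mouse 2 was the highest of the FSH group and saline mouse 1 the lowest of all 11 livers. Sult2a7 was low throughout, with 2.38 ± 0.819 CPM (SD, n = 5) in FSH livers and 3.01 ± 1.45 CPM (SD, n = 6) in saline livers. Sult3a1 was at 23.7, 31.9, 38.7, 27.0 and 32.3 CPM with FSH and ran from 20.4 to 27.5 CPM with a median of 22.5 with saline, and 3 FSH livers lay above every saline liver. Sult3a2 was at 0.804, 0.369, 2.32, 0.581 and 2.10 CPM with FSH, where FSH mouse 2 was again the lowest, and ran from 0.249 to 1.12 CPM with a median of 0.630 with saline.

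Summarised as the mean of log2(CPM + 0.5) in FSH livers minus that in saline livers, the difference was 4.36 ± 0.96 (SE) for Sult2a6, 2.41 ± 0.53 for Sult2a4 and 1.57 ± 0.80 for Sult2a5. It was -0.55 ± 0.99 for Sult2a1, -0.93 ± 0.82 for Sult2a2 and -0.10 ± 0.95 for Sult2a3. For Sult2a7, Sult2a8, Sult3a1 and Sult3a2 it was -0.24 ± 0.26, -0.13 ± 0.13, 0.40 ± 0.12 and 0.44 ± 0.30. The test took genes whose mean over the 11 livers was 0.5 CPM or more, which kept all 10, although Sult2a4 had a mean of 0.396 CPM in saline livers and passed through its FSH values. Sult2a4 and Sult2a6 were the 2 of 10 past both thresholds used here (limma adjusted p under 0.05 and an absolute log2 difference over 1), where 1.83% of the 12733 genes tested were past both and 0.887% were so and higher with FSH. With edgeR or voom on the recovered reads Sult2a6 was no longer past both, leaving Sult2a4. The groups overlapped for all 10 genes, where 6.67% of the genes tested had groups that did not overlap. The median difference was 0.15 over the 10 genes and 0.02 over all genes tested.

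The values of Sult2a1 to Sult2a6 depended on FSH mouse 2. Without it the differences became 0.72 for Sult2a1, 0.12 for Sult2a2, 0.95 for Sult2a3, 2.93 for Sult2a4, 2.55 for Sult2a5 and 5.23 for Sult2a6, so that the first 3 changed sign and Sult2a5 joined the genes past both thresholds, making 3 of 10, where 1.78% of all genes tested were past both without this liver. Other settings turned some of these directions too. Sult2a1 was at 0.17 with edgeR, and Sult2a3 was at 0.39 with edgeR, 0.02 with a pseudocount of 1 CPM, 0.21 without saline mouse 5 and 0.13 without saline mouse 6. Without saline mouse 1 the differences of Sult2a4 and Sult2a6 were 2.79 and 5.21. The summed CPM of Sult2a1 to Sult2a7 is not affected by how reads were split among these copies, but would lack any shared reads that were dropped. It differed by -0.47 and, without FSH mouse 2, by 0.60, so its direction rested on that liver. With any other liver left out it stayed between -0.88 and -0.23, a check chosen after the values were seen. The sum, mostly Sult2a1 and Sult2a2, was 17.5 CPM in FSH mouse 2, between 449 and 1102 in the other FSH livers and between 218 and 1139 in the saline livers.

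Across all genes FSH mouse 2 stood apart from the other FSH livers in 1.93% of the genes tested, by a gap test on the sorted values, and FSH mouse 6 did so in 1.95%. On the second principal component of all genes tested FSH mouse 2 was at 27.3, and the other FSH livers were between -16.5 and 2.80, while saline mice 2 and 6 were at 23.95 and 15.06. Saline mouse 1 stood apart in 0.730% of genes. Among genes known to be female-biased in mouse liver, FSH mouse 2 was the lowest of the 5 FSH livers for 14 of 27 (51.9%), against 17.6% of all genes tested. Among the male-biased genes it was the highest for 14 of 19 (73.7%), against 33.5% of all genes tested. Cyp3a41a, a female-specific cytochrome P450, was at 41.5 CPM in FSH mouse 2 and between 755 and 1458 CPM in the other FSH livers. With saline it also varied widely, from 154 CPM in saline mouse 2 and 223 CPM in saline mouse 1 up to 1458 CPM. Slco1a1, a male-biased organic anion carrier named after its value was seen, was at 174 CPM in FSH mouse 2. This was the highest of the 5 FSH livers, and no saline liver exceeded 44.7 CPM. Saline mouse 1 was the lowest saline liver for 2 and the highest for 2 of the 27 female-biased genes. For the 22 genes induced through CAR and PXR, the receptors of foreign compounds, FSH mouse 2 was the lowest FSH liver for 10 (45.5%, against 17.6% of all genes tested) and saline mouse 1 the lowest saline liver for 8 (36.4%, against 18.2%). Whether these shifts have a part in the Sult2a values was not tested.

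**Figure D3:**
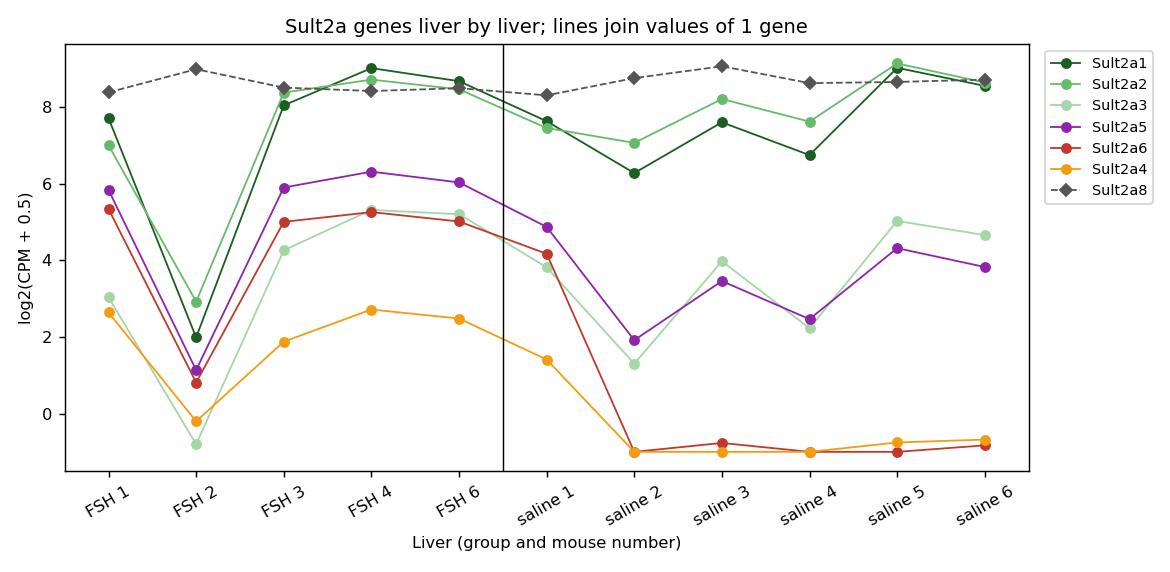
log2(CPM + 0.5) of 7 Sult2a genes in each of the 11 livers, FSH to the left and saline to the right of the vertical line, with points of 1 gene joined. Sult2a1, Sult2a2 and Sult2a3 (green) dip together in FSH mouse 2 and saline mice 2 and 4, Sult2a4 and Sult2a6 (orange, red) lie at the bottom in saline mice 2 to 6, and Sult2a8 (grey) stays level.

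With group means removed, so that treatment does not enter, the family fell into sets that varied together over the 11 livers. Pairwise Pearson correlations of log2(CPM + 0.5) among Sult2a1, Sult2a2 and Sult2a3 ranged from 0.94 to 0.98, and from 0.88 to 0.96 over the 10 livers without FSH mouse 2. Sult2a4 and Sult2a6 correlated at 0.97, and at 0.96 without FSH mouse 2, and saline mouse 1 was the 1 saline liver in which either was above the floor. Sult2a5 correlated at 0.88 to 0.94 with the first 3 genes and at 0.79 to 0.86 with Sult2a4 and Sult2a6. Without FSH mouse 2 it was at 0.76 with Sult2a1, 0.47 with Sult2a2, 0.79 with Sult2a3, 0.68 with Sult2a4 and 0.62 with Sult2a6. Between Sult2a1, Sult2a2 or Sult2a3 and Sult2a4 or Sult2a6 the correlations were 0.48 to 0.71 over all livers and -0.29 to 0.19 without FSH mouse 2. Sult2a8 ran opposite to Sult2a4 at -0.88 and to Sult2a6 at -0.85, and at -0.79 and -0.74 without FSH mouse 2. The last 2 values still include saline mouse 1, the lowest of all livers for Sult2a8 at 316 CPM, and may rest on it. Correlations without saline mouse 1 were not computed for these pairs. Sult3a1 correlated at 0.47 with Sult3a2. These are descriptions over few livers that share library and batch effects, and pairs among Sult2a1, Sult2a2, Sult2a4 and Sult2a5 may share reads.

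**Figure D4:**
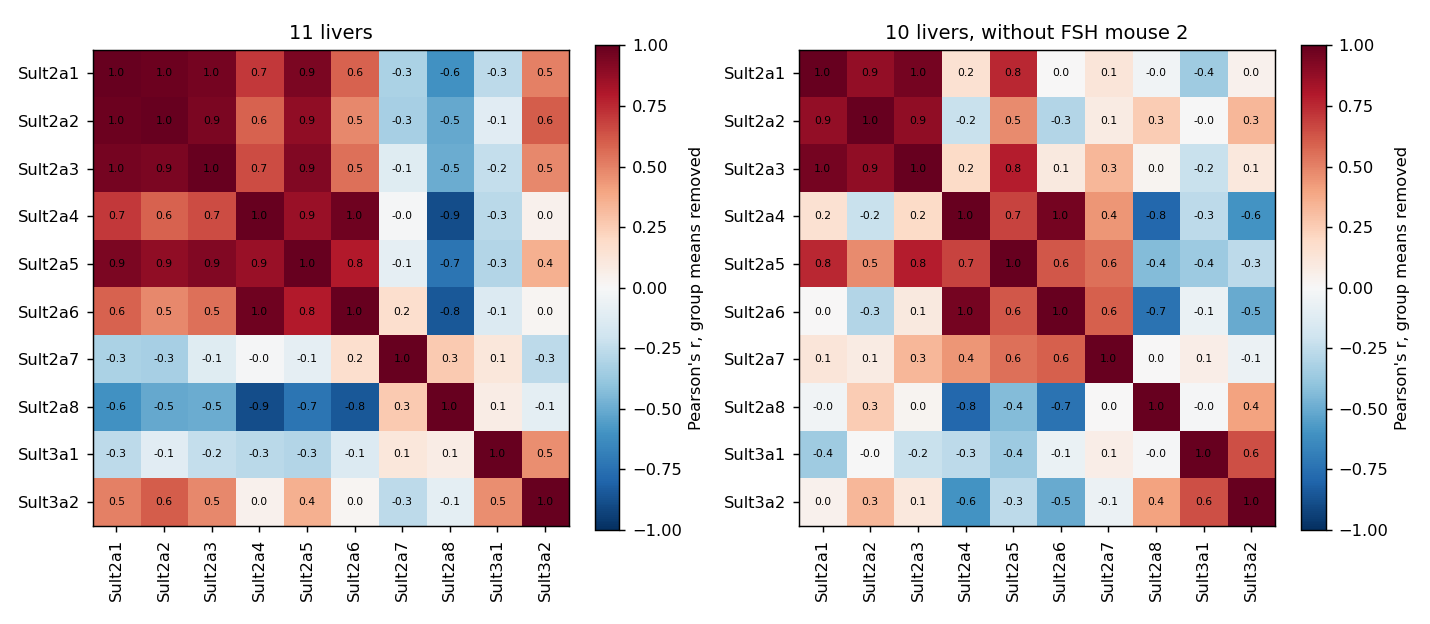
Pearson's r between the 10 genes of log2(CPM + 0.5) after the group mean was removed, over 11 livers (left) and over 10 livers without FSH mouse 2 (right), on a colour scale from -1 (blue) to 1 (red). Sult2a1, Sult2a2 and Sult2a3 form 1 block in both panels and Sult2a4 with Sult2a6 another, and Sult2a8 is blue against Sult2a4 and Sult2a6.

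Along the cluster Sult2a4 and Sult2a6 are separated by Sult2a3, and Sult2a3 is separated from Sult2a1 by Sult2a4. The cluster also holds 18 other annotated genes, of which 8 were in the matrix and 0 reached the filter. The annotated pseudogenes Sult2a-ps1 and Sult2a-ps2 stayed at or below 0.526 and 0.0926 CPM in every liver, and Sult2a-ps3 and Sult2a-ps4 had no read. Within 500 kb on either side 2 genes were tested, Zswim9 with a log2 difference of 0.54 (limma adjusted p = 0.0595) and Lig1, which encodes DNA ligase 1, with 0.82 (limma adjusted p = 0.0023).

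Per kilobase of transcript, Sult2a2, Sult2a1 and Sult2a8 were the 3 most abundant of the 10 in both groups. In saline livers their means were 397 ± 220, 241 ± 167 and 195 ± 33.1 CPM per kb (SD, n = 6), followed by Sult3a1 at 19.9 ± 2.26, Sult2a3 at 15.04 ± 11.4 and Sult2a5 at 12.9 ± 9.12. Sult2a1 exceeded Sult2a8 in only 3 of 6 saline livers, and the ranges of Sult3a1, Sult2a3 and Sult2a5 overlapped, so these neighbours are not separable. In FSH livers the means were 335 ± 234, 275 ± 193 and 178 ± 33.4 CPM per kb (SD, n = 5), followed by Sult2a5 at 50.1 ± 28.3, Sult2a6 at 29.7 ± 16.3, Sult3a1 at 26.6 ± 4.95, Sult2a3 at 20.1 ± 16.95 and Sult2a4 at 4.15 ± 2.40. Sult2a6 was thus at rank 5 with FSH and rank 8 with saline, where it exceeded Sult3a2 in 1 of 6 livers. With FSH it exceeded Sult3a1 in 3 of 5 livers, and Sult3a1 exceeded Sult2a3 in 3 of 5, so these ranks are not separable either. Sult2a8 made up 83.1% of the summed CPM per kb of the 10 genes in FSH mouse 2, 11.2% to 23.4% in the other FSH livers and 12.3% to 41.5% in the saline livers.

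The genes whose levels followed the family most closely were looked up over all 11 livers. For the summed CPM of Sult2a1 to Sult2a7 these were Krt10 with a Pearson correlation of 0.95, Cyp2a22 with 0.92, Ckb with 0.91, Cyp3a41a with 0.89 and Ttll1 with 0.88. Cyp2a22, a cytochrome P450, was at 17.5 CPM in FSH mouse 2 and between 56.7 and 158 CPM in the other 10 livers. After removal of the group means Cyp2a22 led with 0.97 (Spearman's rho 0.92), followed by Krt10 with 0.95, Ckb with 0.91, Cdkn1c with 0.90 and Cyp3a41a with 0.89. Leaving out the most extreme livers, FSH mouse 2 and saline mouse 2, lowered the correlations of levels to 0.84 for Krt10, 0.68 for Ckb, 0.52 for Cyp2a22, 0.52 for Ttll1 and 0.51 for Cyp3a41a, so those of the last 3 rested largely on these livers. With group means removed, Cyp2a22 was then at 0.88 and Cyp3a41a at 0.54.

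For Sult2a8 the closest genes over 11 livers were Chpt1 (0.90), which makes phosphatidylcholine, Epha3 (0.89), Alg11 (0.86), Msh3 (0.85) and Cyp4v3 (0.85). With group means removed C8b led with 0.92, followed by Epha3, Chpt1, Csnk1g1 and Tmem189 at 0.88 to 0.89, and without FSH mouse 2 and saline mouse 3 C8b fell to 0.69 and Epha3 was at 0.88. For the sum of Sult3a1 and Sult3a2 they were Dph2 (0.91), Bri3 (0.88), Dnaaf2 (0.86), Chchd1 (0.83) and Dusp28 (0.82), and with group means removed Ak6 (0.90), Dph2 (0.80), Zfp605 (0.80), Emc8 (0.77) and Ccnt1 (0.77). A further profile, the sum of Sult2a4 and Sult2a6, was added after the values were seen, and its closest genes were Gstp3 (0.95), Lrtm1 (0.95), Adh1 (0.94), Fuom (0.93) and Hamp2 (0.92). With group means removed Bcas2 (0.93), Commd7 (0.93) and Lcmt1 (0.90) came first, followed by Lrtm1 (0.89) and Gstp3 (0.88), and without FSH mouse 2 and saline mouse 1 these 5 were at 0.60 to 0.71. Gstp3, a glutathione S-transferase, was at 41.7, 26.8, 58.0, 51.8 and 44.4 CPM in FSH mice 1, 2, 3, 4 and 6, at 34.9 CPM in saline mouse 1 and between 16.9 and 23.1 CPM in saline mice 2 to 6. Hamp2, a hepcidin gene, was at 891 CPM in saline mouse 1 and between 436 and 772 CPM in the other saline livers, and ran from 676 to 1797 CPM with FSH. In these genes, unlike in Sult2a4 and Sult2a6, saline mice 2 to 6 were not near 0.

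None of the other cytosolic sulfotransferases had a difference between the groups of the size seen for Sult2a4 or Sult2a6. Of 11 listed, 5 passed the filter, 1 was past an adjusted p of 0.05 and 0 were past both thresholds, where 10.6% of all genes tested had an adjusted p under 0.05. Sult1b1, which sulfates thyroid hormones and phenols, rose from 22.2 ± 3.12 CPM (SD, n = 6) with saline to 31.5 ± 5.47 CPM (SD, n = 5) with FSH, a log2 difference of 0.48 ± 0.13 (limma adjusted p = 0.0305; exact two-sided permutation p = 0.0173). This call was lost in 10 of 20 alternative fits, with adjusted p-values between 0.00259 and 0.0902. Sult1a1, the main phenol sulfotransferase, was at 605 ± 95.2 and 646 ± 85.4 CPM (limma adjusted p = 0.667). Sult1d1, which acts on catecholamines, was at 274 ± 46.5 and 234 ± 50.8 CPM (limma adjusted p = 0.345), and Sult1c2 differed by 0.44 ± 0.20 (limma adjusted p = 0.185; exact two-sided permutation p = 0.0909). Without saline mouse 5 the adjusted p of Sult1c2 was 0.0405 in limma, and with the replicate block, which also loses that liver, it was 0.0408. FSH mouse 2 was the lowest of the 5 FSH livers for 3 of these 5 genes (60.0%, against 17.6% of all genes tested), with Sult1a1 at 438 CPM where the others were at 612 to 662, Sult1d1 at 228 CPM against 246 to 347 and Sult1c2 at 12.4 CPM against 16.9 to 21.01. Sult5a1 was at 8.98 ± 2.42 and 13.1 ± 7.08 CPM (limma adjusted p = 0.332). The estrogen sulfotransferase Sult1e1 was at 0.484 ± 0.220 and 0.462 ± 0.249 CPM and below the filter, and Sult1c1 and Sult6b2 had no read.

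Genes of the sulfate donor supply gave calls in both directions. Among 16 genes of sulfate uptake, PAPS synthesis and use, and sulfur oxidation, 14 were tested, 4 rose and 2 fell at an adjusted p under 0.05, against 10.6% of all genes tested, and 0 were past both thresholds, against 1.83%. Papss2, a PAPS synthase, rose from 222 ± 27.1 to 378 ± 45.0 CPM, a log2 difference of 0.77 ± 0.10 (limma adjusted p = 0.000285; exact two-sided permutation p = 0.00433). The lowest FSH liver, at 317 CPM, lay above the highest saline liver, at 268 CPM. Slc35b2, which carries PAPS into the Golgi, rose by 0.42 ± 0.11 on the log2 scale (limma adjusted p = 0.0195), and its groups did not overlap either. Without FSH mouse 1 its adjusted p was 0.0652 in limma. Tst and Sqor, mitochondrial enzymes of sulfide oxidation, rose by 0.39 and 0.32 (limma adjusted p = 0.031 and 0.0334). Ethe1, the persulfide dioxygenase that oxidizes sulfide further to sulfite, fell from 47.9 ± 5.58 to 25.2 ± 1.63 CPM, a log2 difference of -0.91 ± 0.09 (limma adjusted p = 2.6e-05; exact two-sided permutation p = 0.00433). Cdo1, cysteine dioxygenase, fell from 2193 ± 192 to 1281 ± 198 CPM, a log2 difference of -0.78 ± 0.11 (limma adjusted p = 0.000478), with no overlap. Papss1, Suox, Mpst and the sulfate carrier Slc26a1 had adjusted p-values of 0.644, 0.911, 0.586 and 0.304 in limma. The smallest p that the exact test gave for these groups was 0.00433.

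**Figure D5:**
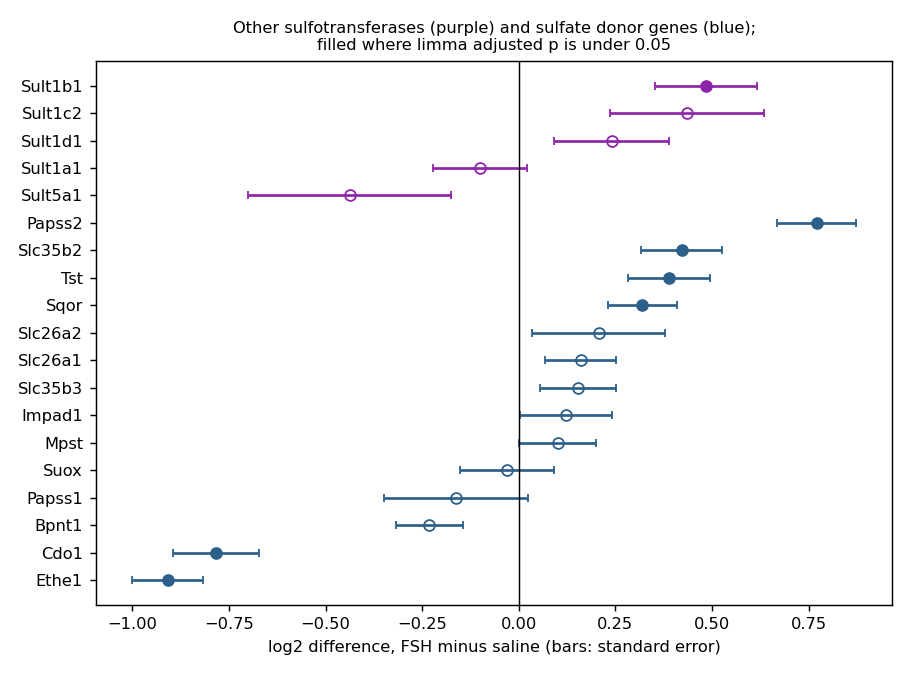
log2 difference of FSH minus saline livers with its standard error for 5 other sulfotransferases (purple) and 14 genes of the sulfate donor supply (blue), filled where the limma adjusted p was under 0.05. Papss2 lies farthest to the right at 0.77 and Ethe1 farthest to the left at -0.91.

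Genes that remove or carry sulfate conjugates were read against the same shares of all genes tested, 10.6% at an adjusted p under 0.05 and 1.83% past both thresholds. Of 13 sulfatases and their activators 10 were tested and 0 had an adjusted p under 0.05, and Sgsh, a lysosomal sulfatase, had a log2 difference of 0.23 (limma adjusted p = 0.348). Of 14 carriers of sulfate conjugates 12 were tested, 2 had an adjusted p under 0.05 and 1 of these was past both thresholds (2 genes without FSH mouse 2). This was Slc51b, a subunit of the basolateral bile acid exporter, which rose by 1.14 ± 0.23 (limma adjusted p = 0.00534). It fell short at 0.91 with a pseudocount of 1 CPM. Slc51b was low, at 0.555 to 1.05 CPM with saline and 1.14 to 3.67 CPM with FSH. Slc51a, in the same list, had no read in any liver. The other gene with an adjusted p under 0.05 was Slc10a1, the bile acid uptake carrier, named after its value was seen. Its difference was 0.31 ± 0.09 (limma adjusted p = 0.039). Of 14 glucuronosyltransferases, the enzymes of the parallel conjugation route, 13 were tested, and 1 rose and 1 fell at an adjusted p under 0.05. The gene that rose, Ugt1a5, was past both thresholds, at 1.03 ± 0.19 (limma adjusted p = 0.00324). The gene that fell, Ugt2b37, named after its value was seen, was at -0.91 (limma adjusted p = 0.0112). Ugt1a5 was no longer past both in 7 of 20 alternative fits, where its difference fell under 1.

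Among 31 nuclear receptors and regulators 30 were tested. With an adjusted p under 0.05, 3 rose and 6 fell, where 10.6% of all genes tested had such a value. Past both thresholds were 2 upward and 1 downward, and for this list and those that follow the share over all genes tested was again 1.83%. Cux2, a female-biased repressor of male-biased genes, rose by 1.94 ± 0.23 (limma adjusted p = 0.000111), Socs2, a growth hormone response gene, rose by 1.33 ± 0.17 (limma adjusted p = 0.00017), and Nr0b2, a corepressor that bile acids induce, fell by 1.32 on the log2 scale (SE 0.31, limma adjusted p = 0.0142; exact two-sided permutation p = 0.0173). Of the 27 female-biased liver genes 2 were past both, Acot3 at 1.68 ± 0.14 (limma adjusted p = 7e-06) and Cux2, which is in both lists, and the median over the list was 0.17. Of the 24 male-biased genes 19 were tested, of which Nudt7 rose by 1.37 (limma adjusted p = 0.000194), Elovl3 fell by 1.58 (limma adjusted p = 0.0165) and Selenbp2 fell by 1.03 (limma adjusted p = 0.00697), and the median was -0.26. Selenbp2 was past both in 17 of 20 alternative fits, and its difference was -0.83 without FSH mouse 3, -0.99 without saline mouse 3 and -0.89 without saline mouse 4. Without FSH mouse 2, 4 female-biased and 5 male-biased genes were past both, and without saline mouse 6 the regulators gave 5. All 22 genes induced through CAR and PXR were tested. Abcb1a rose by 1.32 (limma adjusted p = 0.00136), and 3 fell past both thresholds, including Cyp2b10 by 1.79 (limma adjusted p = 0.00285) and Cyp2c54 by 1.30 (limma adjusted p = 0.00372). The third, Gadd45b, named after its value was seen, fell by 1.76. Over this list the median was 0.05.

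The labelled tissue was checked against cell type markers. All 7 hepatocyte markers were tested, and their sum was 97942 to 116554 CPM in FSH and 92148 to 119030 CPM in saline livers. The 6 Kupffer cell markers had a median log2 difference of -0.47 with sums of 107 to 290 CPM with FSH and 174 to 348 CPM with saline, and 0 of 6 had an adjusted p under 0.05. The sums of the cholangiocyte, stellate, endothelial, lymphocyte and erythroid lists overlapped between the groups, and in these lists Krt7 of cholangiocytes was higher and Lyve1 of endothelium lower with FSH (limma adjusted p = 0.00731 and 0.0121). Of the hepatocyte markers Fgb was lower (limma adjusted p = 0.0289). Markers of adrenal cortex, which also expresses sulfotransferases, summed to at most 1.23 CPM, nearly all of it Star (limma adjusted p = 0.0355), with no read of Cyp11a1, Cyp11b1, Cyp11b2 or Mc2r. The enterocyte list summed to 152 to 281 CPM, nearly all of it Fabp2, which hepatocytes also express, and Lct, Sis, Cdx1 and Cdx2 had no read, and the adipocyte list summed to at most 0.525 CPM. The acinar list summed to at most 16.3 CPM, nearly all of it Cela1, and Pnlip and Prss2 had no read. In bulk liver, fewer cells expressing a gene and less RNA of it per cell cannot be told apart.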

How the data were processed

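Total RNA of 11 livers was sequenced as paired reads of 100 bases. Per the labels the authors used FastQC 0.11.2, Trim Galore 0.3.3, cutadapt, STAR and RSEM on mm10, and the deposited values are CPM per Ensembl gene, each library summing to 1000000. All values were whole multiples of 1 read (within 0.05 reads), so read counts were recovered, giving 10801891 to 19909327 per library. RSEM estimates need not be whole, so how these counts were made, and how reads shared among Sult2a copies were split or dropped, is not given in the sources used here. Of 36788 rows 35555 had a symbol in the reference tables and 1233 were used by identifier. Values were tested as log2(CPM + 0.5) with limma 3.58.1 (R 4.3.3, empirical Bayes with an intensity trend) on genes averaging 0.5 CPM or more, Benjamini-Hochberg adjusted over 12733 genes. A log2 difference understates changes of low genes. Single partner genes also had an exact two-sided permutation test. Alternatives included edgeR 4.0.16 and voom on the recovered reads. Fits were tested on simulated data. Paralog windows and positions came from GENCODE M21 on GRCm38, the same assembly as mm10.

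The 10 genes and all gene lists were chosen with earlier results of these data known. The text names all 10 genes, from each partner list up to 3 genes past both thresholds with the smallest p, otherwise 2, any other sulfotransferase or donor gene, and the 5 genes nearest to each profile. Genes marked as named after their value was seen fall outside this rule. A gene this rule would name is not reported here. Whether the libraries mark strand is not given in the sources used here. The animals are separate mice, each with 1 library, and none of the 25 pairs of libraries within a group agreed within sampling noise.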

Additional observations from a re-analysis of the deposited data

Results flagged for a closer look

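A gap test on log2(CPM + 0.5) (Dixon's, at a critical ratio of 0.71 for 5 livers and 0.625 for 6) was run on 56 groups of values and marked 10. Chance alone marks about 1 in 20 groups, but 7 of the 10 come from 5 Sult2a genes, which were chosen with these data known and do not vary independently, so the number is not set against that rate. In 4 Sult2a genes FSH mouse 2 was set apart below the other FSH livers, at 3.47 CPM for Sult2a1, 0.369 for Sult2a4, 1.70 for Sult2a5 and 1.25 for Sult2a6. In Sult2a8 the same liver was set apart above them, at 508 CPM. Sult2a2 and Sult2a3, also lowest in FSH mouse 2, were not marked, because FSH mouse 1 was low as well. Saline mouse 1 was set apart above the other saline livers at 2.16 CPM for Sult2a4 and 17.5 CPM for Sult2a6. Among partner genes FSH mouse 6 was low for Sult1b1, at 21.8 CPM, and for Ugt1a5, at 398 CPM, and FSH mouse 3 was low for Selenbp2, at 8.67 CPM. What sets these livers apart was not tested.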

How the results depend on the processing

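The number of genes past both thresholds was 233 and ranged from 189 to 311 over 20 alternatives (197 to 273 on leaving out 1 liver). Of the 10 sulfotransferases 2 were past both, and 1 with edgeR and with voom on the recovered reads, where Sult2a4 alone was so; leaving out 1 liver gave 2 to 3. The count over partner lists was 13, 12 to 15 under other settings and 11 to 16 on leaving out 1 liver. The summed CPM of Sult2a1 to Sult2a7 gave -0.47, and 0.60 without FSH mouse 2, in place of the positive values of Sult2a4 and Sult2a6. Most of that sum is Sult2a1 and Sult2a2, so it is no check of these genes, whose own sum gave 4.45. The size of the Sult2a4 and Sult2a6 differences depended on how near-zero values are treated, at 3.85 and 6.01 with a pseudocount of 0.1 CPM and 1.81 and 3.64 with one of 1 CPM. It also depended on the model, at 3.38 and 3.30 with edgeR and 4.72 and 6.96 with voom. Sult1a1, not called in any setting, ran from -0.14 to 0.011 on leaving out 1 liver, with the sign changed without FSH mouse 2. With the replicate block 251 genes and 2 of the 10 were past both. The block leaves saline mouse 5 without a partner, and Sult2a3 was at 0.21 both with the block and on leaving out that liver alone. Same-numbered livers shared no known cage or day, and their deviations correlated at 0.065, 0.356, 0.019, 0.137 and -0.066, so the numbers were not taken as pairs. No scaling moved the median of all genes by more than 0.038. Depth limits Sult2a4 and Sult2a6 in saline mice 2 to 6, where a count of 0 allows up to 3 reads, and counting error alone is covered by that floor.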
